A study of Mus musculus with 16 samples.

Results

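The genes described here encode the conjugating enzymes of drug and odorant metabolism in mouse olfactory mucosa. They comprise every gene whose symbol names a cytosolic glutathione S-transferase (Gsta, Gstk, Gstm, Gsto, Gstp, Gstt or Gstz followed by a number), a microsomal glutathione S-transferase (Mgst), a UDP-glycosyltransferase (Ugt) or a cytosolic sulfotransferase (Sult) in the annotation of the array. The rule found 56 of 19505 genes, of which 21 were Gst, 3 Mgst, 21 Sult and 11 Ugt genes. It used no measured value, but the set was chosen with earlier results of these data known. Ugt2a1, the olfactory glucuronosyltransferase, Gsta1 and the Ugt1a genes were not analysed here.

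Conjugating enzymes attach glutathione, glucuronate or sulfate to small lipophilic molecules, which makes them soluble and ready for export. Glutathione S-transferases act on electrophiles, UDP-glucuronosyltransferases draw on UDP-glucuronate, and sulfotransferases take their sulfate from PAPS (3'-phosphoadenosine 5'-phosphosulfate). In the olfactory mucosa these enzymes are known mainly from sustentacular cells, the supporting cells of the epithelium, and from Bowman's glands, where they clear odorants and protect the tissue from inhaled toxicants.

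The mice were C57BL/6 animals with an S100a5-tauGFP reporter, in which fluorescence follows the activity-dependent S100a5 gene of olfactory sensory neurons. The 24 mice of both sexes, 7 to 12 weeks old, were housed alone for 40 h in chambers with a clean air flow of 3.1 L/min, and all groups carried the reporter. After 26 h they received 10 s pulses, 20 min apart, of whiskey lactone, an oak aroma compound (odor), or of filtered air (vehicle), to compare stimulated with unstimulated tissue. Tissue of 3 mice formed a pool, each pool was sorted by fluorescence into 2 fractions, and the 4 pools of each treatment gave 4 groups of 4 arrays: odor titled GFP+, odor titled GFP-, vehicle titled GFP+ and vehicle titled GFP-.

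Titles and the cell type field contradict each other on the sorted fraction for all 16 arrays. Within each of the 8 pools, S100a5 itself had less signal on the GFP+ titled array (log2 differences of -1.34 ± 0.09 and -1.23 ± 0.09, SE, in odor and vehicle pools). Of 6 measured neuronal activity genes, 5 were lower there in both treatments (S100a5, Pcp4l1, Lrrc3b, Kirrel2 and Pcdh10), with list medians of -1.30 and -1.17. Sphk1, at background on all arrays, was higher in odor pools. Groups are named by title here, and every difference between fractions would change sign if the cell type field were followed. Omp, which defines mature sensory neurons, lay between 18.43 and 18.83 (log2) on all arrays. That is near the top of the signal range, where the highest feature of each array was at 19.09 to 19.24. Median log2 signals over all genes were 6.62 to 7.13, and the medians of the negative control features, used here as the measure of background, were 4.98 to 5.59.

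Of the 56 conjugation genes, 15 lay above the negative control median on all 16 arrays, 13 on some arrays, and 28 lay at or below it on all 16 arrays. The 15 comprised 9 of 21 Gst genes (Gsta3, Gsta4, Gstk1, Gstm1, Gstm2, Gstm4, Gstm5, Gstp1 and Gstz1), all 3 Mgst genes, 3 of 21 Sult genes (Sult1c1, Sult1d1 and Sult4a1) and 0 of 11 Ugt genes. The 28 genes at background comprised 6 Gst, 14 Sult and 8 Ugt genes, among them 7 of the 8 Ugt2 genes and 6 of the Sult2a genes. Against the stricter bound of the 95th percentile of the controls (9.09 to 10.11), 4 genes remained above on all 16 arrays (Gstm1, Mgst3, Sult1d1 and Sult4a1) and 46 exceeded it on none.

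Between the fractions, 18 of the 56 genes had more and 4 had less signal in arrays titled GFP+ of the odor pools (called higher and lower), at an adjusted p under 0.05 (limma, Benjamini-Hochberg over all 19505 genes). Over all genes 12.8% were called higher and 14.7% lower in that comparison. In the vehicle pools 14 of the 56 were higher and 4 lower, against 12.3% and 13.6% of all genes. The same 14 genes were higher in both treatments, where 10.9% of all genes were, and 1 gene, Sult4a1, was lower in both. The median log2 difference of the 56 genes was 0.01 in odor and -0.03 in vehicle pools, beside -0.15 and -0.14 over all genes. The 14 genes were Gsta3, Gstm1, Gstm2, Gstm5, Gsto1, Gstp1, Gstp2, Gstt3, Mgst1, Mgst2, Sult1c1, Sult1e1, Sult2b1 and Ugt8a. By family, 11 of 21 Gst, 2 of 3 Mgst, 4 of 21 Sult and 1 of 11 Ugt genes were higher in the odor pools, and 8, 2, 3 and 1 in the vehicle pools. The count of lower genes depended on the scaling. With each array centred on its median over all genes, 13 genes were higher and 21 lower in odor pools and 13 and 23 in vehicle pools, while the median difference of all genes moved to -0.53 and -0.51. Of all 19505 genes, 1902 were then called higher and 12906 lower in odor pools and 1818 and 12539 in vehicle pools. For differences between fractions, p-values measure how the difference within a pool varied from pool to pool. In tests between treatments they measure the spread between pools of mice. In both, 4 pools a group limit the precision.

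**Figure D1:**
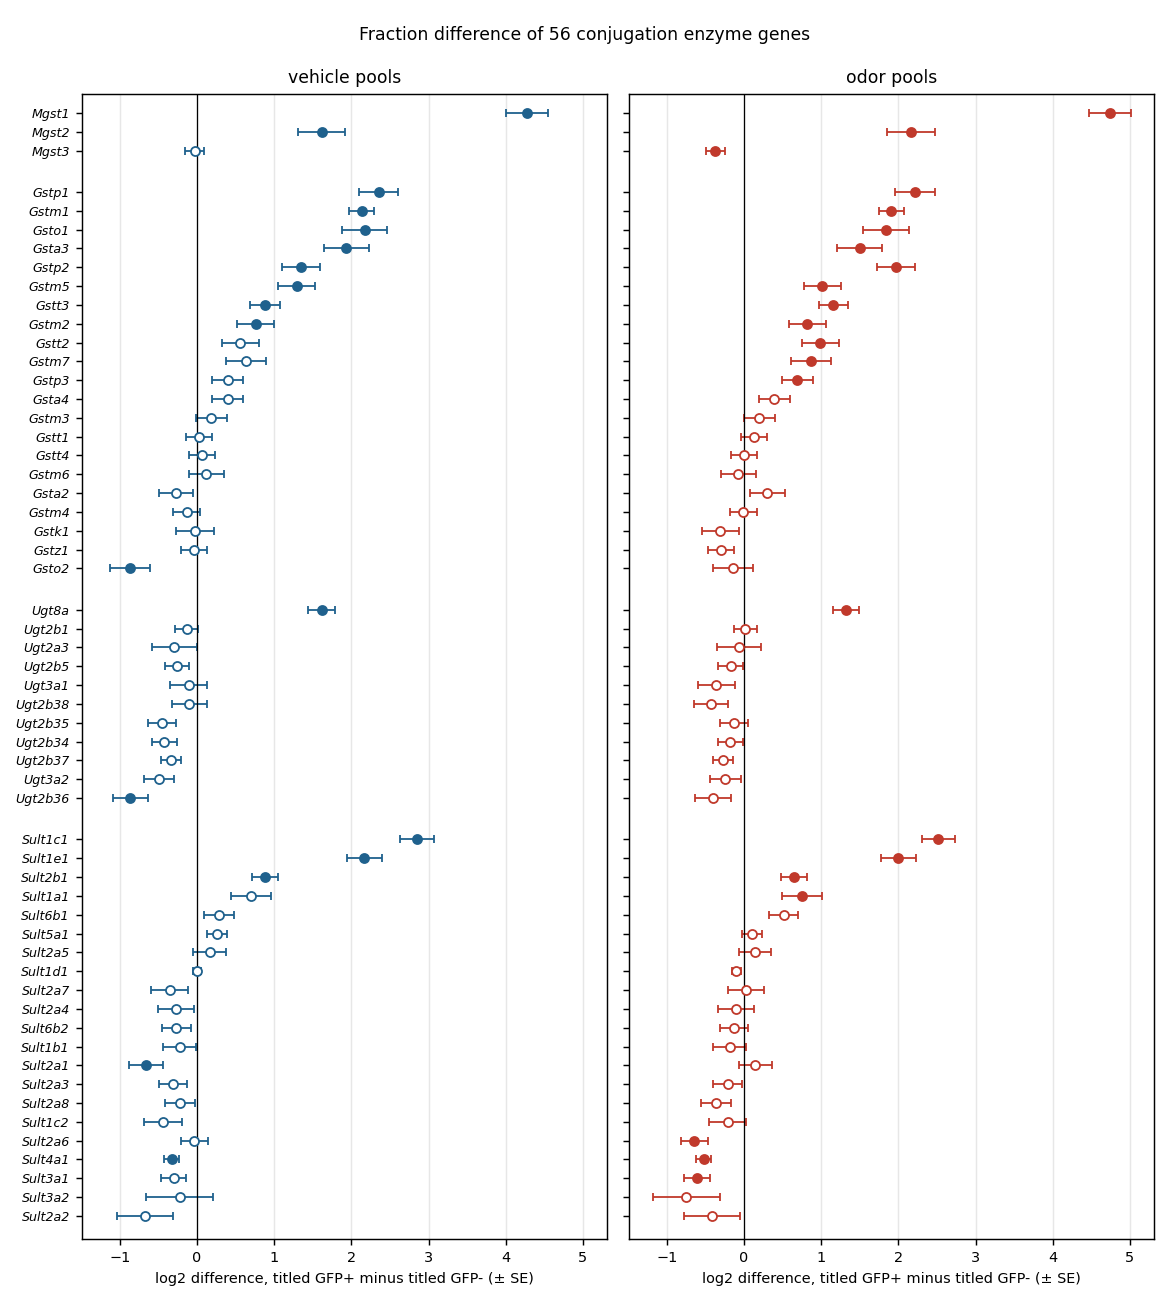
Log2 difference, titled GFP+ minus titled GFP-, of each of the 56 conjugation genes in vehicle pools (left) and odor pools (right), with families separated by a gap and genes ordered within them by the sum of both differences. Points are limma estimates, bars are SE and filled points have an adjusted p under 0.05. Mgst1 stands apart at 4.27 and 4.74, the Gst genes reach 2.35, and all Ugt genes but Ugt8a lie near or below 0.

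The largest difference belonged to Mgst1, a membrane-bound glutathione S-transferase of the endoplasmic reticulum and mitochondria that also reduces lipid peroxides. Its log2 signals in odor pools 1 to 4 were 12.94, 10.80, 12.33 and 10.88 in the arrays titled GFP+ and 7.40, 6.83, 6.84 and 6.93 in those titled GFP-. In vehicle pools 1 to 4 they were 12.50, 11.22, 12.12 and 11.41 against 8.40, 7.44, 7.24 and 7.10. The fractions did not overlap in either treatment, and every array titled GFP+ lay at least 2 log2 units above every array titled GFP-. The difference was 4.74 ± 0.27 (SE; 26.7-fold, adjusted p = 2.83e-08, limma) in odor and 4.27 ± 0.27 (19.3-fold, adjusted p = 8.35e-08) in vehicle pools, with the same sign in all 8 pools. The 250 bases before a start of Mgst1 are shown with the core of the antioxidant response element, the binding sequence of NRF2, in capitals on its reverse strand. Each upstream sequence printed here is the first of its gene in RefSeq that holds a capitalised motif, so it was chosen for that motif.

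The sequence lies upstream of the gene at chr6:138140277-138140526 on the + strand (GRCm38.p6, RefSeq).
Mgst1: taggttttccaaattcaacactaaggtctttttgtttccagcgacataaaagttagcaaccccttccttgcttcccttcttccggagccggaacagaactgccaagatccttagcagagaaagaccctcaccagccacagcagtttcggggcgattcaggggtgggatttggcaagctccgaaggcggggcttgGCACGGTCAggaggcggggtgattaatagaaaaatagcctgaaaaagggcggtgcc

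Mgst2, a relative that makes leukotriene C4 and reduces lipid peroxides, differed in the same direction. Its log2 signals in odor pools 1 to 4 were 9.55, 8.01, 9.36 and 7.54 (titled GFP+) and 6.70, 6.73, 6.06 and 6.32 (titled GFP-). In vehicle pools they were 8.80, 7.86, 8.51 and 8.36 against 7.07, 6.56, 7.09 and 6.36. No array titled GFP+ fell within the range of those titled GFP-. The differences were 2.16 ± 0.31 (4.47-fold, adjusted p = 0.000137) and 1.61 ± 0.31 (3.06-fold, adjusted p = 0.00168). Mgst3, the third microsomal enzyme, lay above the 95th percentile of the controls on all 16 arrays. In odor pools its signals were 13.50, 13.31, 13.60 and 13.62 in the arrays titled GFP+ and 13.95, 13.68, 13.98 and 13.93 in those titled GFP-. The odor fractions were thus separate by a narrow margin, with a difference of -0.37 ± 0.12 (adjusted p = 0.0410). In vehicle pools the fractions overlapped, and the difference was -0.03 ± 0.12 (adjusted p = 0.870). The call in odor pools was lost with each odor pool left out in turn (adjusted p = 0.0730 to 0.129), and the difference in vehicle pools changed sign with the scaling (-0.40 with median centring, 0.27 with mature neuron centring, each array then being centred on its mean over the mature neuron markers). Mgst3, Sult4a1 and Sult1d1 were picked for full description once their values were known.

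**Figure D2:**
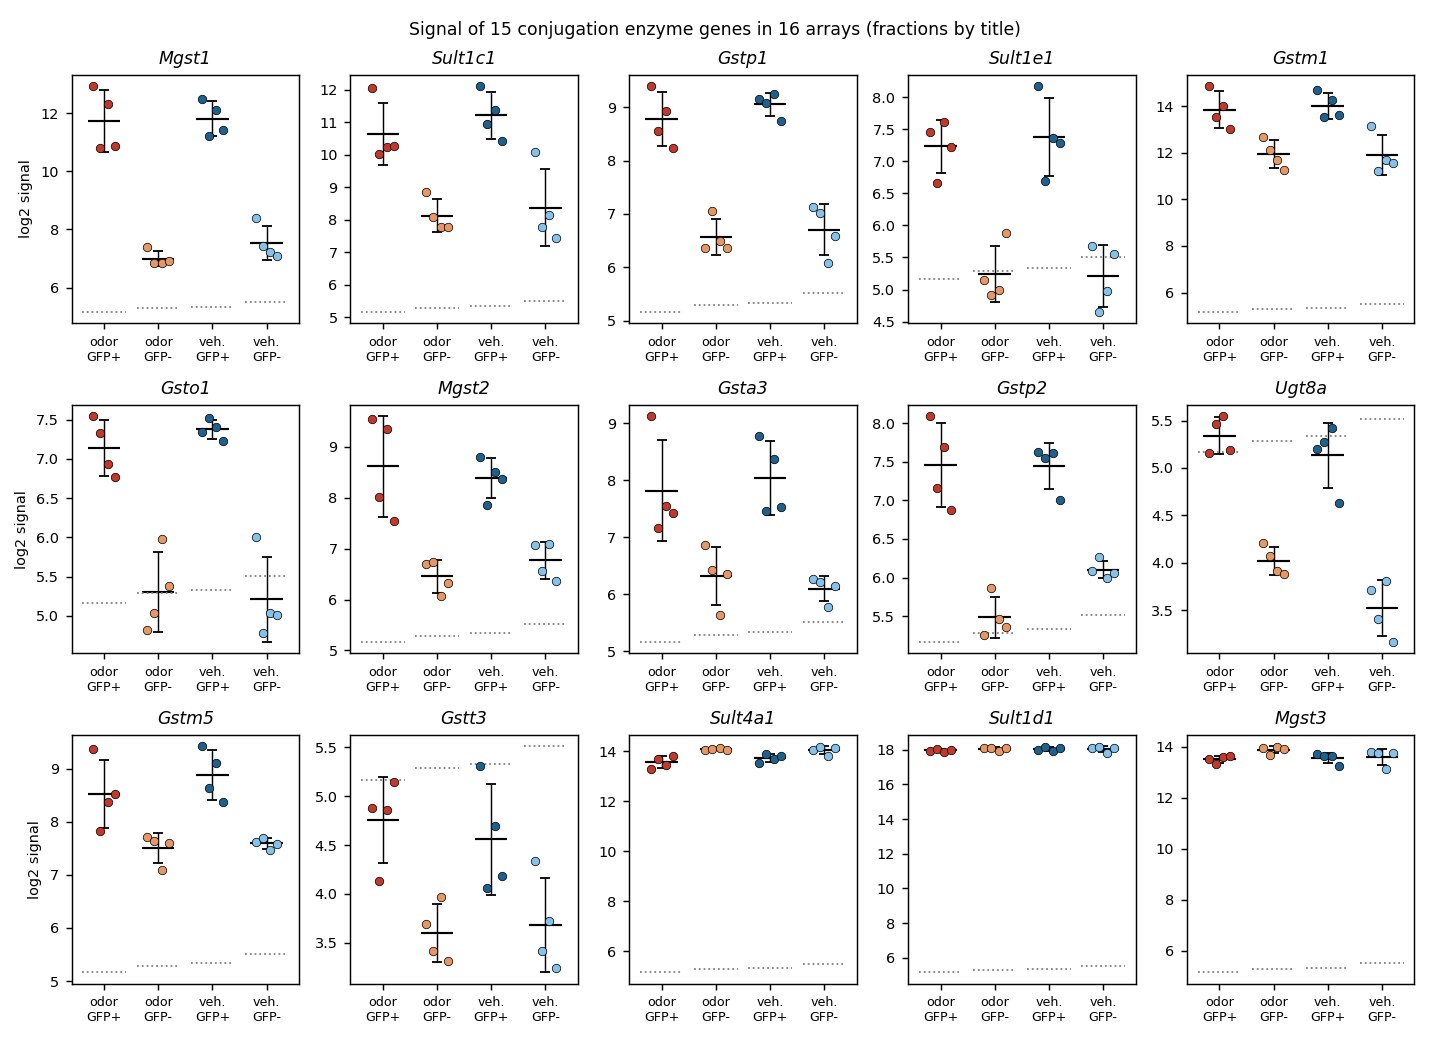
Log2 signal of 15 conjugation genes on each of the 16 arrays, 1 panel a gene with its own axis, 4 arrays a group, fractions named by title. Dots are arrays, horizontal lines are group means, bars are SD and dotted lines are the group's mean negative control median. The group means of Mgst1 differ by 4.74 and 4.27 between fractions, and Sult1d1 lies between 17.79 and 18.15 on every array.

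Among the cytosolic glutathione S-transferases the pi class led. Gstp1, a broad detoxifying enzyme, had log2 signals of 9.40, 8.56, 8.94 and 8.23 in odor pools 1 to 4 titled GFP+ against 6.36, 7.05, 6.49 and 6.36 titled GFP-. In vehicle pools the signals were 9.15, 9.09, 9.25 and 8.75 against 7.13, 7.02, 6.08 and 6.59. The ranges were at least 1 log2 unit apart in both treatments. The differences were 2.21 ± 0.25 (4.64-fold, adjusted p = 2.01e-05) and 2.35 ± 0.25 (5.10-fold, adjusted p = 1.23e-05). Gstp2, its close copy next to it on the chromosome, had signals of 8.09, 7.16, 7.70 and 6.87 against 5.25, 5.86, 5.46 and 5.36 in odor pools. Vehicle pools 1 to 4 gave 7.62, 7.55, 7.61 and 7.01 against 6.08, 6.27, 6.00 and 6.07. The fractions were separate again, and 3 of 4 odor arrays titled GFP- exceeded the control median. Gstp2 differed by 1.97 ± 0.24 (3.92-fold, adjusted p = 3.90e-05) and 1.34 ± 0.24 (2.54-fold, adjusted p = 0.00114). Its odor arrays titled GFP- averaged only 0.20 above the control median, so the 3.92-fold is uncertain. Probe sequences were not used here, so signal of Gstp1 and Gstp2 that crosses between the near-identical copies cannot be told apart. The third copy, Gstp3, lay at background on all arrays. Its difference passed the threshold in the odor pools (0.69 ± 0.20, adjusted p = 0.0219) and was 0.40 ± 0.20 in the vehicle pools.

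Among the genes called higher in both treatments, Gsta3, Mgst2 and Sult2b1 also hold a capitalised motif and are not printed. Sequences before the starts of Gstp1 and Gstp2, likewise higher in both treatments, are shown as examples. Of 235 aligned bases 207 were identical (88.1%), and both hold the AP-1 sequence TGAGTCA, in capitals, the binding motif of FOS and JUN factors. Gstp1 lies at chr19:4037913-4038162 and Gstp2 at chr19:4042222-4042471, both on the - strand (GRCm38.p6, RefSeq).
Gstp1: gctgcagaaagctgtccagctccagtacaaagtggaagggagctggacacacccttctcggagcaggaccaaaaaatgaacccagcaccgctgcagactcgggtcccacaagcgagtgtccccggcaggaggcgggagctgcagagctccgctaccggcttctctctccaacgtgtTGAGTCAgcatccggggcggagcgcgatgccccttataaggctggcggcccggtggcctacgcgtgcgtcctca
Gstp2: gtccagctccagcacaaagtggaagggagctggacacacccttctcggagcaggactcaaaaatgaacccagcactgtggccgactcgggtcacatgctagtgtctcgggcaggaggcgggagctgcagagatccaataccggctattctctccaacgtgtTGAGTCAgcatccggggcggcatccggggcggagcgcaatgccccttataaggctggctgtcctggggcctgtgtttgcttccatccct

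The mu class was led by Gstm1, which conjugates many electrophiles. Its log2 signals in odor pools 1 to 4 were 14.89, 13.54, 14.02 and 13.02 titled GFP+ and 12.70, 12.13, 11.72 and 11.29 titled GFP-. In vehicle pools they were 14.72, 13.54, 14.27 and 13.62 against 13.16, 11.21, 11.69 and 11.56. Pool 1 was the highest in all 4 groups, and the fractions did not overlap. The differences were 1.91 ± 0.16 (3.76-fold, adjusted p = 1.34e-06) and 2.13 ± 0.16 (4.38-fold, adjusted p = 4.94e-07). Gstm5 had signals of 9.37, 7.82, 8.37 and 8.52 against 7.72, 7.63, 7.08 and 7.59 in odor pools, and of 9.42, 8.64, 9.10 and 8.36 against 7.62, 7.70, 7.46 and 7.58 in vehicle pools. Odor pool 2 gave the narrowest gap. Gstm5 differed by 1.01 ± 0.24 (2.02-fold, adjusted p = 0.00652) and 1.29 ± 0.24 (2.45-fold, adjusted p = 0.00130). Gstm2 differed less, by 0.82 ± 0.24 (adjusted p = 0.0226) and 0.76 ± 0.24 (adjusted p = 0.0331). It was lower in the array titled GFP+ of odor pool 2 (8.73 against 8.81), and its call was lost after median centring in both treatments (adjusted p = 0.0909 and 0.124). Both Gstm2 calls were also lost without the pool as a block. The odor call was lost without odor pool 1, 3 or 4, and the vehicle call without vehicle pool 1 or 3 and without the variance trend. Gstm7 passed in odor pools (0.86 ± 0.26, adjusted p = 0.0259, against 0.63 in vehicle pools), a call lost with median centring (0.48, adjusted p = 0.0883) and without odor pool 1, 3 or 4 (adjusted p = 0.0504 to 0.137), and Gstm3, Gstm4 and Gstm6 passed in neither. Of the mu-class genes, Gstm5 is shown for its promoter, which holds both an antioxidant response element core and an AP-1 sequence in capitals, at chr3:107895604-107895853 on the + strand (GRCm38.p6, RefSeq).
Gstm5: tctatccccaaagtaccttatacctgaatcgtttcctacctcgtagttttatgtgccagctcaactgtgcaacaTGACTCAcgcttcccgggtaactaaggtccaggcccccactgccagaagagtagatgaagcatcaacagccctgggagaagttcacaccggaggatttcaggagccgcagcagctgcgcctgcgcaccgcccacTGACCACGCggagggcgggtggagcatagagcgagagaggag

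Gsta3, an alpha-class enzyme that also isomerises steroid precursors, had log2 signals of 9.13, 7.17, 7.55 and 7.43 in odor pools 1 to 4 titled GFP+ and of 6.87, 6.43, 5.64 and 6.36 titled GFP-. Vehicle pools 1 to 4 gave 8.78, 7.46, 8.38 and 7.53 against 6.27, 6.21, 5.78 and 6.15. Both treatments kept the fractions apart. The differences were 1.5 ± 0.29 (2.82-fold, adjusted p = 0.00166) and 1.93 ± 0.29 (3.82-fold, adjusted p = 0.000230). Gsta4, which conjugates the lipid peroxidation product 4-hydroxynonenal, was at 0.39 ± 0.20 and 0.40 ± 0.20 and did not pass (adjusted p = 0.159 and 0.160).

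Gsto1, an omega-class enzyme that works as a thioltransferase and dehydroascorbate reductase, had signals of 7.55, 7.33, 6.94 and 6.76 against 4.82, 5.03, 5.98 and 5.38 in odor pools. In vehicle pools they were 7.35, 7.53, 7.41 and 7.23 against 6.01, 4.78, 5.03 and 5.01. All 8 arrays titled GFP+ exceeded the control median, as did 2 and 1 of the 4 arrays titled GFP-. Gsto1 differed by 1.84 ± 0.29 (adjusted p = 0.000364) and 2.17 ± 0.29 (adjusted p = 9.52e-05), with no fold given because the lower group lay near background. Its neighbour Gsto2 lay at background on all arrays, at -0.14 ± 0.26 in odor and -0.87 ± 0.26 in vehicle pools, of which the second passed (adjusted p = 0.0259).

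The theta-class gene Gstt3 was dim. Its signals were 4.88, 4.13, 4.86 and 5.15 against 3.69, 3.42, 3.97 and 3.31 in odor pools, and 5.31, 4.06, 4.70 and 4.18 against 4.34, 3.41, 3.72 and 3.24 in vehicle pools. Only 1 of the 16 arrays exceeded its control median, and the vehicle fractions overlapped between pools, so no fold is given. Within every pool the array titled GFP+ had the higher signal, and the fitted differences, between values at or near background, were 1.16 ± 0.19 (adjusted p = 0.000498) and 0.88 ± 0.19 (adjusted p = 0.00423). They are not a measure of the size of a change. Gstk1 of mitochondria and peroxisomes and Gstz1, the maleylacetoacetate isomerase of tyrosine breakdown, were measured on all arrays and passed in neither treatment. Their differences were -0.31 ± 0.24 and -0.30 ± 0.17 in odor pools and -0.03 ± 0.24 and -0.04 ± 0.17 in vehicle pools.

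Of the sulfotransferases, Sult1c1, a phenol sulfotransferase, differed most. Its log2 signals in odor pools 1 to 4 were 12.04, 10.01, 10.22 and 10.28 titled GFP+ and 8.85, 8.08, 7.79 and 7.77 titled GFP-. Vehicle pools 1 to 4 gave 12.11, 10.93, 11.38 and 10.41 against 10.08, 7.77, 8.16 and 7.43. Pool 1 was highest in all 4 groups, and the fractions did not overlap, although vehicle pool 1 titled GFP- came close. The differences were 2.52 ± 0.22 (5.72-fold, adjusted p = 1.34e-06) and 2.85 ± 0.22 (7.21-fold, adjusted p = 4.38e-07). Its upstream sequence, at chr17:53990632-53990881 on the - strand (GRCm38.p6, RefSeq), opens with an AP-1 sequence in capitals.
Sult1c1: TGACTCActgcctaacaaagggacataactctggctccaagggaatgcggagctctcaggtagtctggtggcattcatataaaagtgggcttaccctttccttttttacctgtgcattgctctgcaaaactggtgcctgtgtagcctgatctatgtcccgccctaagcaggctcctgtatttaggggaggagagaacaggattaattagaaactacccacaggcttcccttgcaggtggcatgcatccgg

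Sult1e1, the estrogen sulfotransferase, had signals of 7.46, 6.66, 7.61 and 7.23 against 5.15, 4.92, 5.0 and 5.88 in odor pools. In vehicle pools they were 8.18, 6.69, 7.36 and 7.28 against 5.67, 4.65, 4.98 and 5.55. In each treatment 1 of the 4 arrays titled GFP- exceeded the control median, and the fractions were separate. Sult1e1 differed by 2.00 ± 0.23 (adjusted p = 1.82e-05) and 2.17 ± 0.23 (adjusted p = 9.11e-06), with no fold given because the mean of the lower group lay below the control median. Sult2b1, a cholesterol sulfotransferase, lay at background on all 16 arrays while passing the threshold in both treatments (0.65 ± 0.17 and 0.88 ± 0.17, adjusted p = 0.0119 and 0.00190), and no fold is given. Its odor call was lost with median centring (0.27, adjusted p = 0.156) and without odor pool 1 (adjusted p = 0.0689). Sult1a1, the common phenol sulfotransferase, passed in odor pools (0.75 ± 0.26, adjusted p = 0.0449) and was at 0.70 ± 0.26 in vehicle pools. That call was lost with median centring (0.37, adjusted p = 0.176) and without odor pool 1 (0.40, adjusted p = 0.258) or 3 (adjusted p = 0.146).

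Sult1d1, which sulfates catecholamines, lay near the top of the signal range, where the highest feature of each array was at 19.09 to 19.24. Its log2 signal was 17.92, 18.05, 17.84 and 18.0 in odor pools titled GFP+ against 18.12, 18.07, 17.92 and 18.11 titled GFP-. In vehicle pools it was 17.97, 18.13, 17.94 and 18.10 against 18.11, 18.15, 17.79 and 18.09. The fractions overlapped in both treatments, with differences of -0.10 ± 0.06 (adjusted p = 0.195) and 0.00 ± 0.06 (adjusted p = 0.990). The sign of these differences turned with the scaling (-0.48 and -0.37 with median centring, 0.17 and 0.31 with mature neuron centring).

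Sult4a1, an orphan sulfotransferase of neurons with no settled substrate, was the 1 member lower in both treatments. Its signals were 13.29, 13.70, 13.47 and 13.82 against 14.05, 14.11, 14.14 and 14.07 in odor pools, and 13.52, 13.88, 13.68 and 13.79 against 14.05, 14.16, 13.83 and 14.14 in vehicle pools. The odor fractions were separate, and the vehicle fractions overlapped. The differences were -0.52 ± 0.10 (1.44-fold lower, adjusted p = 0.00121) and -0.33 ± 0.10 (1.26-fold lower, adjusted p = 0.0234), lower in 8 of 8 pools. The vehicle call was lost without pool 1, 2 or 4 (adjusted p = 0.0557 to 0.130) and under cyclic loess (-0.22, adjusted p = 0.0952). With mature neuron centring the differences were -0.25 (adjusted p = 0.0476) and -0.02 (adjusted p = 0.875). In the Sult2 and Sult3 classes, mostly steroid and bile acid sulfotransferases, Sult2a6 and Sult3a1 were lower in odor pools (-0.64 and -0.61) and Sult2a1 in vehicle pools (-0.66), the first 2 at background on all arrays. None of these calls held under mature neuron centring (-0.37, -0.34 and -0.36, adjusted p = 0.190, 0.230 and 0.281).

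Of the 11 Ugt genes analysed, which leave out Ugt2a1 and the Ugt1a genes, only Ugt8a was called higher in arrays titled GFP+. Ugt8a adds galactose to ceramide in the making of myelin lipids. Its signals were 5.15, 5.47, 5.55 and 5.19 against 4.21, 4.07, 3.91 and 3.88 in odor pools, and 5.20, 5.28, 5.42 and 4.63 against 3.71, 3.41, 3.81 and 3.16 in vehicle pools. In each treatment 2 of the 4 arrays titled GFP+ and none of those titled GFP- exceeded the control median. The fractions were separate, with differences of 1.32 ± 0.17 (adjusted p = 6.12e-05) and 1.61 ± 0.17 (adjusted p = 1.06e-05). Because the lower group was at background, the odor level was at least 1.04-fold higher, and no bound above 1 was available in vehicle pools. The 8 Ugt2 genes, which glucuronidate steroids and drugs, had medians of -0.18 and -0.32, and 1 of them, Ugt2b36, was lower in vehicle pools (-0.86 ± 0.23, adjusted p = 0.0142), where it lay at background on all arrays.

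The calls of the 12 genes Gsta3, Gstm1, Gstm5, Gsto1, Gstp1, Gstp2, Gstt3, Mgst1, Mgst2, Sult1c1, Sult1e1 and Ugt8a held in both treatments under median centring, cyclic loess, mature neuron centring and without each single pool. A filter that dropped the dimmest 30% of genes left Gstt3 and Ugt8a untested. Past the threshold in 1 treatment only were Gstm7, Gstp3, Gstt2 and Sult1a1 (higher) and Mgst3, Sult2a6 and Sult3a1 (lower) in odor pools, and Gsto2, Sult2a1 and Ugt2b36 (lower) in vehicle pools. The difference between treatments, tested for every gene as an interaction, passed for none of them. Each of these 10 calls was lost under at least 1 of the 3 scalings or without at least 1 pool. The remaining 31 genes passed in neither, 5 of them above the control median on all arrays (Gsta4, Gstk1, Gstm4, Gstz1 and Sult1d1).

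Members that neighbour each other on a chromosome, by gene order in RefSeq, did not share a pattern throughout. The 56 genes held 9 runs of neighbouring members with at most 2 other protein-coding genes between them, and these runs held 41 genes. In the Gstm run, from Gstm5 through Gstm7, Gstm6, Gstm3, Gstm2 and Gstm1 to Gstm4, the highest differences were those of Gstm1 and Gstm5, with Gstm6, Gstm3 and Gstm4 between -0.13 and 0.20 in both treatments. Sult1c1 stood beside Sult1c2 (-0.21 and -0.44, neither passing). At the end of the run of 8 Ugt2 genes, Sult1b1 (-0.18 and -0.22) and Sult1d1 preceded Sult1e1, the 1 gene of the 11 that was higher.

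**Figure D3:**
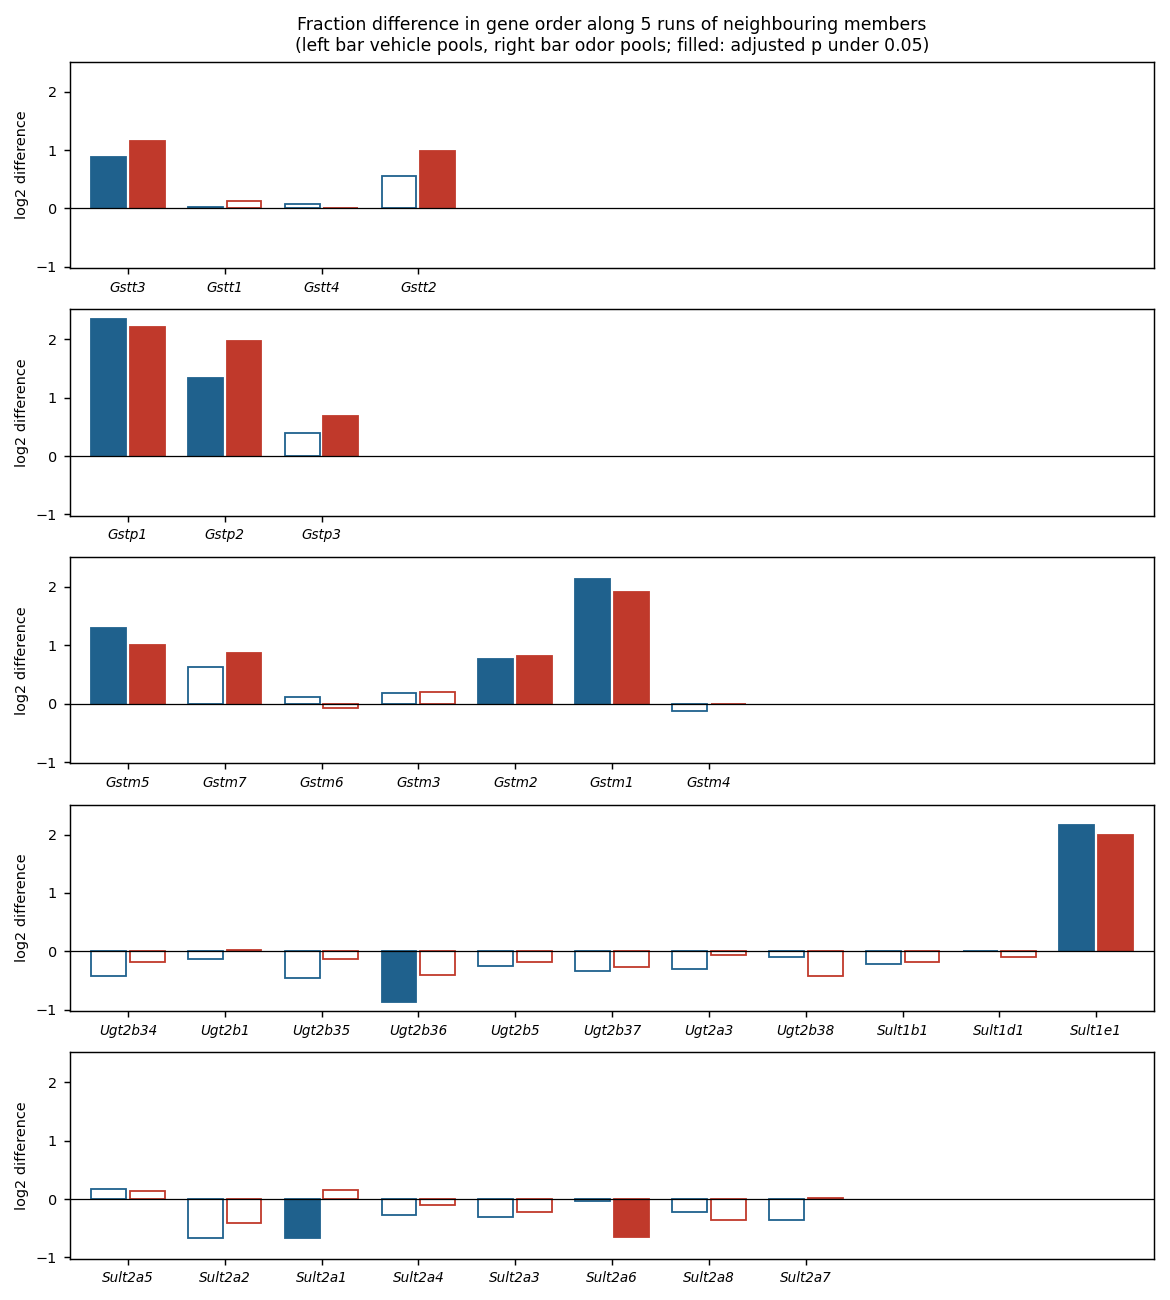
Log2 difference, titled GFP+ minus titled GFP-, of the members of 5 runs of neighbouring genes, in gene order from left to right, with the left bar for vehicle and the right bar for odor pools. Filled bars have an adjusted p under 0.05. Genes with large differences stand beside genes near 0, as Sult1e1 (2.17 and 2.00) beside Sult1d1 (0.00 and -0.10).

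Of the 56 genes, 49 had an upstream sequence in RefSeq (GRCm38.p6), 14 of them the genes higher in both treatments, and 15 motifs were searched on both strands in the 250 bases before the start. They were the antioxidant response element core (TGACNNNGC), its longer form with a further A, which contains the core, the xenobiotic response element core (GCGTG), the AP-1 site (TGANTCA), the TATA box (TATAAA), the RFX motif (GTTGCC), the FOXA site (TGTTTAC), the GRHL site (AACCGGTT), the ETS site (CCGGAAG), the GC box (GGGCGG), the C/EBP site (TTGCGCAA), the HNF4 motif (CAAAGTCCA), the SOX site (ACAAAG), and the palindromic HNF1 and NF1 sites. The AP-1 letters were found in 6 of the 14 genes (Gstm5, Gstp1, Gstp2, Mgst2, Sult1c1 and Sult2b1) and in 7.82% of all genes with a sequence. Of the 49 conjugation genes 10 held them, the others being Ugt2b1, Ugt2b35, Ugt2b37 and Ugt2b38. The antioxidant response element core was found in 3 (Gsta3, Gstm5 and Mgst1) against 11.5% of all genes, the xenobiotic element in 5 against 30.9%, and the GC box in 7 against 35.4%. Over the 49 conjugation genes these counts were 4 (also Gstm7), 10 and 15. Of the 15 motifs, AP-1 was singled out after all counts had been seen, so its count is a description. A gene counted for a motif when any of its upstream sequences held it, and a match shows only that the letters are present. Gstp1 and Gstp2 count separately here although their sequences are nearly the same.

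Markers of several cell types also differed between the fractions in which 14 of the 56 conjugation genes were higher in both treatments. Of the 10 measured sustentacular markers 9 were higher in both treatments, all but Hes1, which lay at background on all arrays. Their list level, the mean log2 signal of the list, was 8.91 to 10.49 in odor and 9.32 to 10.49 in vehicle arrays titled GFP+, and 7.34 to 8.09 and 7.60 to 8.61 in those titled GFP-. Krt18, a keratin of these cells, differed by 3.61 ± 0.31 and 3.63 ± 0.31, and Krt8 by 2.73 ± 0.23 and 2.69 ± 0.23. Cyp1a2 and Cyp2a5, oxidising enzymes that make substrates for conjugation, differed by 2.48 and 2.15 in odor and by 2.18 and 2.15 in vehicle pools.

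All 9 neutrophil markers were higher in both treatments, with list levels of 12.95 to 15.22 and 13.40 to 14.60 titled GFP+ against 5.57 to 6.82 and 5.74 to 6.95 titled GFP-. Their median difference of 8.62 and 8.78 exceeded that of every conjugation gene. Macrophage markers were higher in 9 and 10 of 10 (levels of 8.12 to 9.78 and 8.36 to 9.68 against 5.33 to 6.24 and 5.56 to 6.42). Microvillar cell markers were higher in 9 of 9 (8.04 to 9.30 and 7.99 to 9.50 against 5.38 to 6.28 and 5.60 to 6.32), with Chat at background on all arrays. Of 8 Bowman's gland markers 4 were higher in each treatment, Obp1a was lower in odor pools (-1.38), and Muc5b was at background. All 4 erythroid markers were higher in both treatments (medians 3.71 and 2.33; levels of 8.64 to 10.96 and 7.70 to 9.36 against 5.68 to 6.54 and 5.92 to 6.31). Of 7 progenitor and basal cell markers Kit, Mki67 and Top2a were higher in both, Trp63 was lower in odor pools, and Neurog1, Krt5, Krt14 and Trp63 were at background on all arrays. Of 8 respiratory ciliated cell markers 3 and 4 were lower, and 1, Sec14l3, was higher in vehicle pools. Of 10 immature neuron markers 6 were higher in each treatment (11.68 to 12.23 and 11.72 to 11.99 against 10.12 to 10.32 and 10.05 to 10.36). Of 17 mature neuron markers 0 were higher, and 9 and 10 were lower (medians -0.28 and -0.30), with levels of 15.88 to 16.17 and 15.93 to 16.03 against 16.20 to 16.33 and 16.27 to 16.31. In these bulk fractions fewer cells of a type and less RNA per cell cannot be told apart, and the part of each cell type in the differences of the conjugation genes was not tested.

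**Figure D4:**
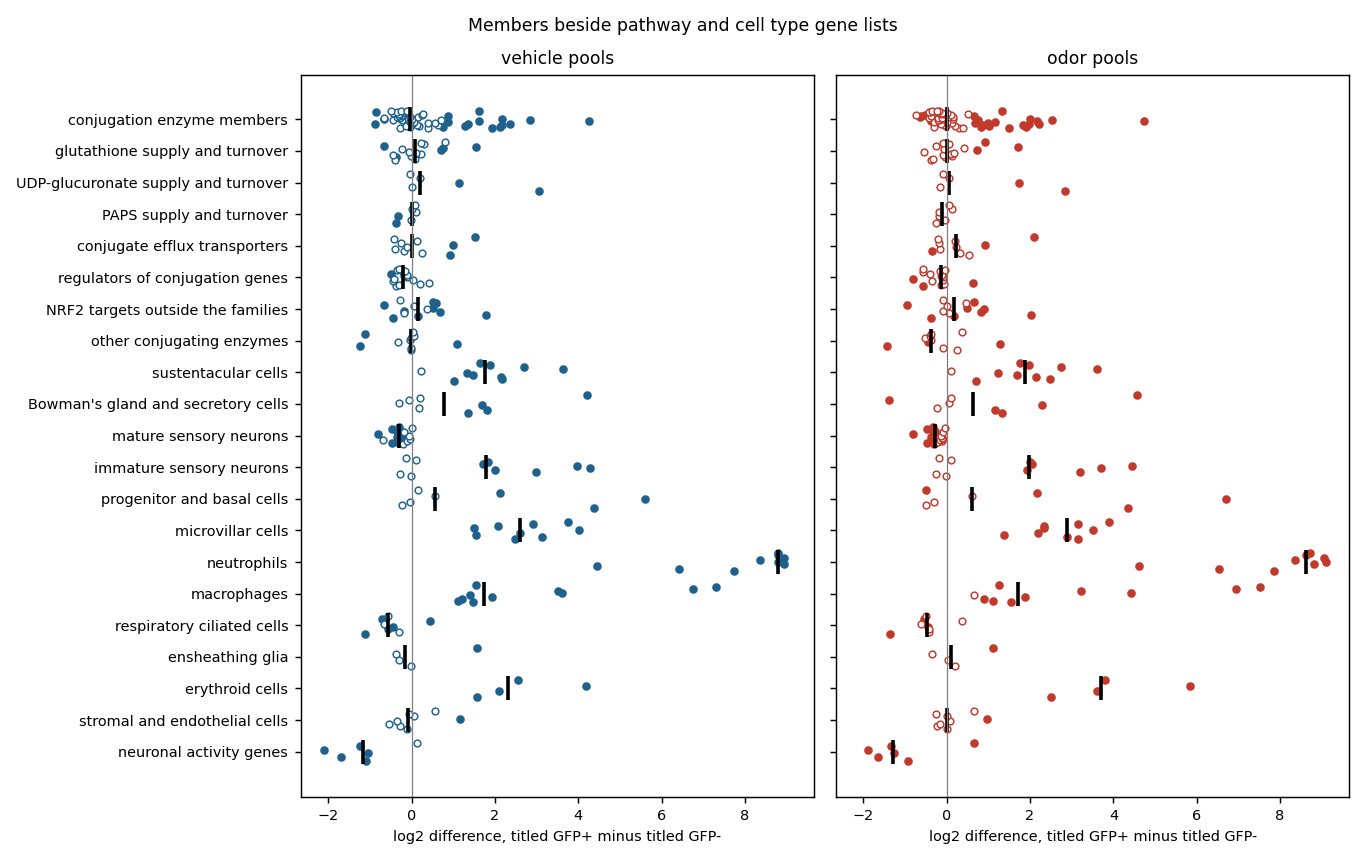
Log2 difference, titled GFP+ minus titled GFP-, of the 56 conjugation genes (top line) and of the measured genes of 20 pathway and cell type lists, in vehicle pools (left) and odor pools (right). Dots are genes, filled where the adjusted p is under 0.05, and black bars are list medians. The conjugation genes have medians of -0.03 and 0.01, and the sustentacular list 1.77 and 1.88.

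The genes that supply and handle the conjugates showed no common shift. Of 16 glutathione genes, 3 were higher in the odor pools and 3 higher and 2 lower in the vehicle pools, with medians of 0.01 and 0.09. Gsr, glutathione reductase, was higher in both (1.70 ± 0.17 and 1.55 ± 0.17, adjusted p = 5.25e-06 and 1.39e-05), as was Ggt5. Slc7a11, the cystine importer, was higher in odor pools (0.92 ± 0.29, adjusted p = 0.0336), and Ggt7 in vehicle pools (0.76 ± 0.15), where Gss, glutathione synthetase, was lower (-0.67 ± 0.17, adjusted p = 0.0111) beside Chac2 (-0.38). The rate-limiting Gclc and its partner Gclm differed by 0.09 and 0.16 in odor pools and 0.23 and 0.10 in vehicle pools, none past the threshold.

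Of 5 UDP-glucuronate genes 2 were higher in both treatments, Slc35d2, a nucleotide sugar transporter, and Gusb, the lysosomal glucuronidase (2.83 ± 0.28 and 3.06 ± 0.28). Ugdh, which makes UDP-glucuronate, did not pass (0.04 and 0.20). Of 6 genes of PAPS supply none was higher, and Papss2 and Bpnt1 were lower in vehicle pools (-0.32 and -0.37). Of 10 efflux transporters 2 were higher and 1 lower in odor pools and 3 were higher in vehicle pools. Abcg2, which exports sulfate conjugates, was at least 2.79-fold higher in odor and at least 1.39-fold higher in vehicle pools, and Abcc3 differed by 0.92 ± 0.21 and 0.99 ± 0.21. Abcc1 was lower in odor pools (-0.34), and Abcb1a, at background, higher in vehicle pools (0.91).

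Of 15 regulators 1 (Bach1, 0.63) was higher and 2 (Maff, -0.82, and Ahr, -0.57) were lower in odor pools. In vehicle pools Nfe2l2, which encodes NRF2, was lower (-0.48 ± 0.16, adjusted p = 0.0371). Of 13 NRF2 targets outside the conjugation families, 6 were higher in each treatment and 2 and 3 lower. Ftl1 led those higher in both (2.02 ± 0.19 and 1.78 ± 0.19), and Srxn1 those lower in both (-0.95 ± 0.13 and -0.66 ± 0.13). Of 10 other conjugating enzymes 1 was higher and 2 lower in each treatment. Hnmt, which methylates histamine, was higher (1.27 and 1.09), and Glyat, which conjugates glycine, was lower in both (-1.43 and -1.23). Inmt was lower in odor pools (-0.46, at background on all arrays) and Nnmt in vehicle pools (-1.11).

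Between treatments no conjugation gene differed past the threshold. In the test of whether the fraction difference depended on odor, limma called 0 of the 56 genes, where 0.00513% of all genes were called, and 2 had an unadjusted p under 0.05 (3.27% of all genes). They were Sult2a1 (0.81 ± 0.31, adjusted p = 0.999) and Sult2a6 (-0.61 ± 0.25), followed in order of p by Gsto2 (0.72 ± 0.37). Sult2a1 exceeded the control median on 3 of 16 arrays, and Sult2a6 and Gsto2 on none. For Mgst1 and Sult1c1 the fraction difference in odor pools minus that in vehicle pools was 0.47 and -0.33.

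Within the arrays titled GFP+, 0 of the 56 genes differed between odor and vehicle in limma (0.00513% of all genes called, 1 gene). The differences ran from -0.57 (Sult1c1) to 0.49 (Gsta2), with a median of -0.02 beside 0.01 over all genes. Gsta2 was the 1 gene with an unadjusted p under 0.05 (4.88% of all genes; 0.49 ± 0.23, adjusted p = 1.00) and exceeded the control median on 1 of 16 arrays. In order of p, Ugt2b36 (0.40 ± 0.21) and Ugt2b34 (0.27 ± 0.15) followed. Sult1c1 was 10.64 ± 0.94 in odor and 11.21 ± 0.72 in vehicle arrays (SD, n = 4), and Mgst1 11.74 ± 1.07 and 11.82 ± 0.60, and the treatments overlapped.

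Within the arrays titled GFP-, limma called 0 of the 56 genes and 0% of all genes. An unadjusted p under 0.05 was reached by 3 conjugation genes (5.88% of all genes). Ugt8a was higher in odor (0.50 ± 0.19, adjusted p = 0.775), with all its arrays in this fraction at background. Gstp2 was lower in odor (-0.62 ± 0.24, adjusted p = 0.786), at 5.49 ± 0.27 against 6.10 ± 0.11 (SD, n = 4), and the treatments did not overlap. Sult3a1, at background, was higher in odor (0.57 ± 0.23, adjusted p = 0.786). A p above the threshold does not show that the treatments act alike, since the standard errors were wide, as for Sult1c1 (-0.24 ± 0.49) and Mgst1 (-0.55 ± 0.40).

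**Figure D5:**
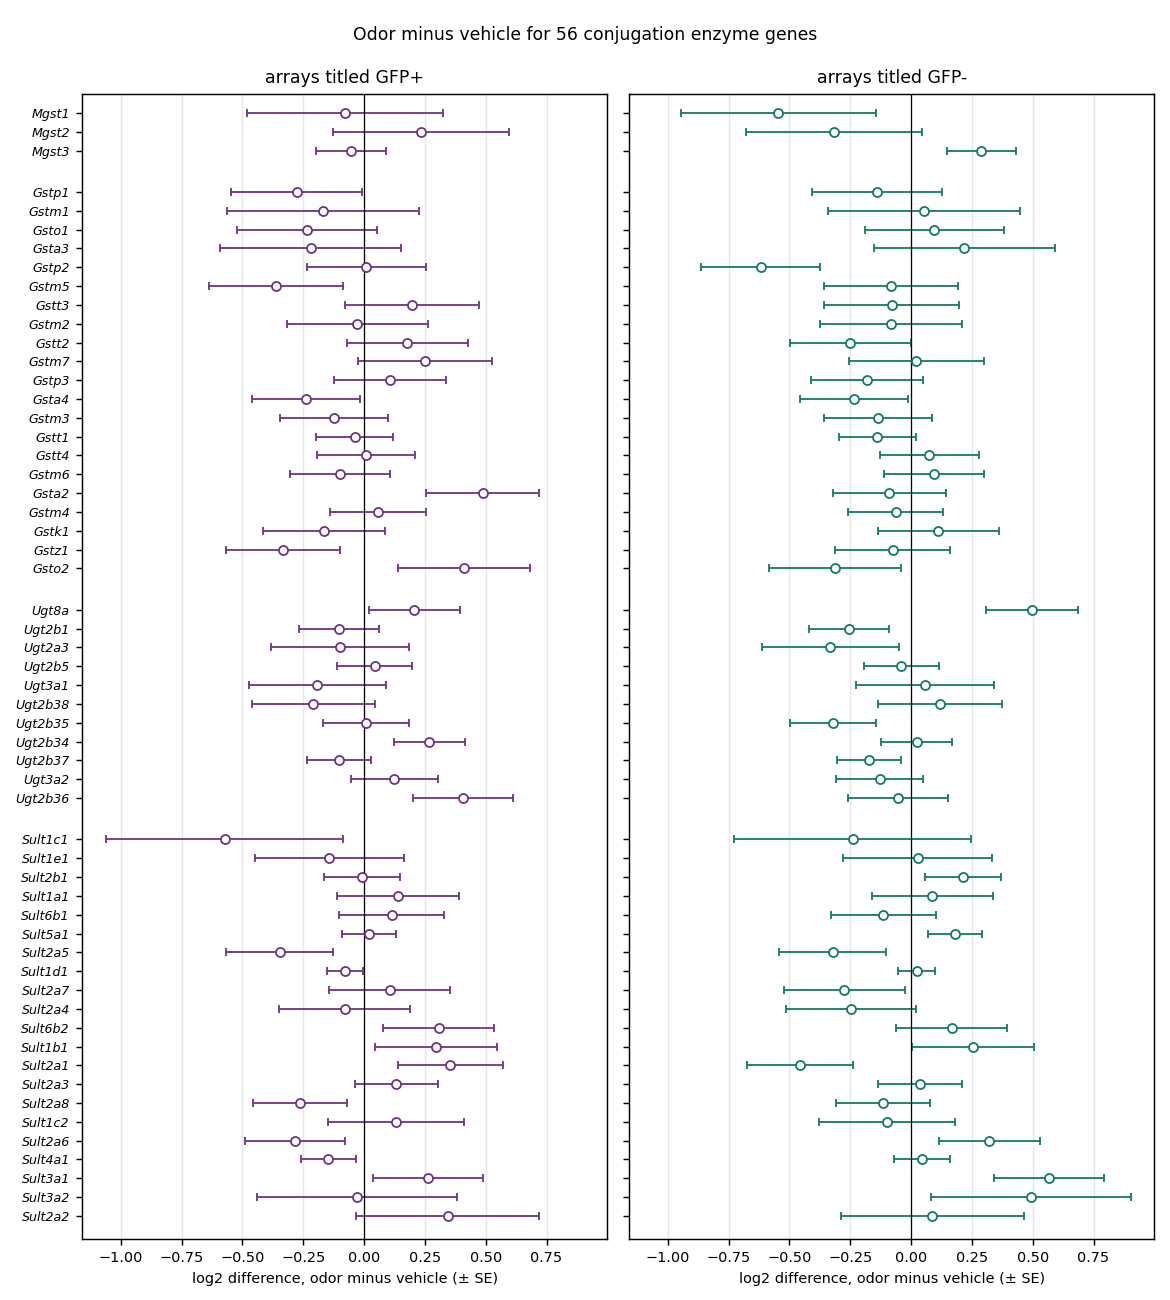
Log2 difference, odor minus vehicle, of each of the 56 conjugation genes in arrays titled GFP+ (left) and GFP- (right), with families separated by a gap in the same order as in the plot of fraction differences. Points are limma estimates and bars are SE; open points have an adjusted p of 0.05 or more, which holds for all of them. The differences run from -0.57 to 0.49 and from -0.62 to 0.57.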

How the data were processed

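The log2 signals of 16 Affymetrix arrays (28846 features) were deposited by the authors. Per the submitters' processing notes they were made with Affymetrix Expression Console, with version, background step and normalization not given in the sources used here. Of the features 19572 carried 1 gene symbol, and the feature with the highest mean was kept for each of 19505 genes.

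Fractions were compared with limma 3.58.1 (R 4.3.3; variance trend, Benjamini-Hochberg over all genes, threshold 0.05) with the pool as a fixed block, on 6 residual degrees of freedom. Odor was compared with vehicle within a fraction with the pool as a random block (correlation 0.164). The fit was tested on simulated data with a small pool effect and independent noise. These data held no shift shared by the genes of an array, so the simulation does not bear on the scaling. A gene is called dim, or at background, in a group where it lies at or below the median of 5222 negative control features on all 4 arrays, and a fold against such a group is a lower bound. No detection call was used.

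Both fractions of a pool come from the same mice, per the labels, and their deviations from group means correlated at 0.116 to 0.341. Between treatments, same-numbered arrays had correlations of 0.198 to 0.279 (titled GFP-) and 0.0787 to 0.410 (titled GFP+). With the number as a further block no conjugation gene was called in either fraction.

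The genes and lists were chosen with earlier results of these data known. All array values are given for up to 12 genes with the largest mean difference among those past the threshold in both treatments with 1 sign in all 8 pools. Between treatments the 3 genes with the smallest p are named where none passed, and in each list up to 4 genes, or all that passed where these were 5 or fewer. Motifs and the relations between pools were chosen after the data were seen. Alternatives were the block, 3 scalings, leaving out dim genes, the mean of all features of a gene, no variance trend, leaving out each pool and a stricter background.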

Additional observations from a re-analysis of the deposited data

Results flagged for a closer look

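In 60 combinations of a gene and a group of 4 arrays, 7 had 1 array set apart from the other 3 by more than Dixon's 95% critical gap, and chance flags about 1 in 20 groups. Mgst3 held 3 of them. It was low in odor pool 2 titled GFP- (13.68, the others 13.93 to 13.98), in vehicle pool 4 titled GFP+ (13.26, the others 13.64 to 13.71) and in vehicle pool 3 titled GFP- (13.11, the others 13.74 to 13.78). Sult1d1 was low in that same vehicle pool 3 array (17.79, the others 18.09 to 18.15). Gstp2 was low in vehicle pool 4 titled GFP+ (7.01, the others 7.55 to 7.62). Odor pool 1 was high for Sult1c1 titled GFP+ (12.04, the others 10.01 to 10.28) and for Mgst1 titled GFP- (7.40, the others 6.83 to 6.93).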

How the results depend on the processing

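The count of higher genes stayed within 1.5 times its value under all alternatives run, and no gene named as called changed sign. The other counts moved, and the cause was not tested. Lower genes in odor pools (4) became 2 without the replicate block, 21 after median centring, 2 after cyclic loess, 1 after mature neuron centring and 2 with dim genes left out. Over all genes the lower calls (2860) became 2253, 12906, 1395, 838 and 2854. In vehicle pools (4) they became 23, 1 and 0 under the 3 scalings. Over all genes 2658 became 12539, 1411 and 702. The median difference of the members became -0.37, 0.15, 0.28 and, without dim genes, 0.60 in odor pools, and -0.40, 0.10, 0.28 and 0.51 in vehicle pools. Under the stricter background 46 members, not 28, were dim on all arrays. Leaving out 1 pool gave 13 to 18 higher and 2 to 3 lower members in odor pools (medians -0.0042 to 0.048), and 13 to 15 higher and 0 to 3 lower in vehicle pools (medians -0.0274 to 0.0822). The lowest vehicle count, 0, came without pool 4, with 1 without pool 1 and 2 without pool 2, and the 2 in odor pools without pool 3. With the replicate number as a block, 0 members and, over all genes, 9 higher and 2 lower (titled GFP+) and 12 higher and 1 lower (titled GFP-) were called between treatments. Dim genes limit what can be read, since 28 of the 56 members lay at background on all arrays.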

Other observations

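The pools of the fraction titled GFP+ differed in how high the conjugation genes were. Of the 14 genes higher in both treatments, pool 1 had the highest signal of 11 in odor and of 10 in vehicle arrays. The lowest signals lay in odor pool 2 for 7 and in odor pool 4 for 5 genes, and in vehicle pools 2 and 4 for 7 each. In this fraction the median over all genes was also highest in pool 1 (7.13 in odor, 7.09 in vehicle). It was lowest in pool 2 (7.01 and 6.95). The share of all genes that followed this order was not counted, so the order is not particular to the conjugation genes.

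Across the 8 arrays titled GFP+, 12 conjugation genes were set against the list levels of sustentacular and neutrophil markers, and these 2 levels against each other, giving 25 relations. They were chosen after the data were seen, and p-values are exact permutation values, two-sided, with Benjamini-Hochberg adjustment over the 25. The 12 genes were selected for large differences between fractions, and the 8 arrays are from the fraction where they were higher. Both marker lists were higher in that fraction as well. Other lists higher there, such as macrophage and microvillar markers, were not tried, so a relation does not single out a cell type. In odor pools 1 to 4 the sustentacular level was 10.49, 8.91, 9.57 and 9.28. The median over all genes ran in the same order (7.13, 7.01, 7.10 and 7.03). In vehicle pools 1 to 4 the level was 10.49, 9.35, 9.95 and 9.32, and that median 7.09, 6.95, 7.03 and 7.02. How genes in general relate to these levels was not computed. By Pearson's r, 6 genes passed 0.05 after adjustment with the sustentacular level (Gsta3, Gstm5, Sult1c1, Gstm1, Mgst1 and Gstp1), and with the neutrophil level 3 (Mgst2, Gstm1 and Mgst1). By Spearman's rho the counts were 9 (also Sult1e1, Mgst2 and Gstp2) and 6 (also Sult1e1, Gsta3 and Gstp2). The permutations treat the 8 arrays as exchangeable. Arrays of the same number in odor and vehicle correlated at 0.0787 to 0.410, and pool 1 had the highest sustentacular level in both treatments, so these p-values may be too small.

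Gsta3 followed the sustentacular level most closely (Pearson's r = 0.98, exact permutation p = 0.000248, adjusted 0.00310; Spearman's rho = 0.98, p = 0.000397). Within odor and vehicle pools r was 0.97 and 0.99, and without the 2 arrays farthest from the median level it was 0.94. For Sult1c1 r was 0.94 (exact permutation p = 0.00268, adjusted 0.00957; rho = 0.83, p = 0.0154), with 0.95 and 0.96 within treatments and 0.78 without the 2 farthest arrays.

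Mgst2 followed the neutrophil level most closely (r = 0.96, exact permutation p = 0.000198, adjusted 0.00310; rho = 0.95, p = 0.00114). Within treatments r was 0.97 and 0.98, and 0.91 without the 2 farthest arrays. Mgst1 was related to both levels, with r = 0.91 (exact permutation p = 0.00134, adjusted 0.00957; rho = 0.95, p = 0.00114; 0.84 without the 2 farthest arrays) for sustentacular and r = 0.90 (exact permutation p = 0.00233, adjusted 0.00957; rho = 0.90, p = 0.00456; 0.82) for neutrophil markers.

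Ugt8a had r of -0.03 and -0.04 with the 2 levels (exact permutation p = 0.867 and 0.943, rho = -0.14 and -0.17). The levels themselves had r = 0.73 (exact permutation p = 0.0356, adjusted 0.0635; rho = 0.79, p = 0.0279), which fell to 0.40 without the 2 farthest arrays. The part of either cell type in the signal of the conjugation genes was not tested.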
